A study of Mus musculus with 6 samples.

Results

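The genes described here are 10 transcription factors of the pluripotent state, taken as a named list of core factors (Pou5f1, Sox2 and Nanog) and factors of the naive state (Esrrb, Zfp42, Tfcp2l1, Prdm14, Klf2, Klf4 and Klf5). They are 10 of 21938 protein-coding genes of the mouse annotation. For each gene, regions called by CUT&RUN for GATA4 and GATA6 in XEN cells were collected from the gene body and from 50 kb to either side of every annotated transcription start site (TSS). The 10 windows came to 1.15 Mb.

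The pluripotent epiblast and the primitive endoderm (PrE) arise side by side from the inner cell mass of the blastocyst. Embryonic stem (ES) cells keep the epiblast program through a network in which OCT4 (encoded by Pou5f1), SOX2 and NANOG bind each other's enhancers and those of the naive factors. GATA6 and GATA4 are zinc finger factors that specify the PrE, and extra-embryonic endoderm (XEN) cells are the stem cell line of that lineage, in which the pluripotency network is normally silent.

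CUT&RUN, in which an antibody tethers a nuclease that releases DNA beside the bound protein, was carried out on the starting XEN cells of a reprogramming study, to ask which genes GATA4 and GATA6 may bind directly. There were 3 libraries for GATA4 and 3 for GATA6, each from 500000 cells of the line labelled 3F2. The methods describe these cells as carrying a doxycycline-inducible Oct4, Klf4, Sox2 and mCherry cassette at Col1a1, a reverse transactivator at Rosa26 and a GFP reporter at Pou5f1, all shared by the 6 libraries. The labels state 30000000 reads per sample, and the reads left after filtering are not known. Region lists give positions of binding signal and no expression. The identity of the cells could therefore be checked only by the regions at PrE genes. Gata4, Gata6, Sox17 and Pdgfra each held combined regions of both factors, whereas Foxa2, another PrE gene, had 0 for GATA6. Of all protein-coding genes, 48.2% had a GATA4 and 38.3% a GATA6 combined region in the window.

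Each library has its own list of called regions (42446 to 49597 per library), and each factor has a combined list of regions found in all 3 of its libraries (8282 for GATA4 and 5170 for GATA6). Regions of the 6 lists that overlapped or touched were joined into merged regions, 201994 in the genome. Signal was not scaled between libraries. It is therefore given only as the maximum signal of a region, which is the largest number of fragments stacked at a base, and as a percentile of total signal within its own library.

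The sequences below are the DNA under regions that recurred at or beside these genes. They are shown because the results at Klf4, Klf5 and Klf2 rest largely on them, and the last comes from beyond the Nanog window. Each is 200 bp of the plus strand of GRCm38 (mm10), centred on the stretch shared by every library that called the region. Capitals mark the GATA motif, which is AGATAA on either strand with T also allowed as the first base and G as the last. On the minus strand it reads as TTATCT, with C also allowed first and A last. The region 16.9 kb downstream of the Klf4 TSS (chr4:55515975-55516174) and the region 33.3 kb downstream of the Klf5 TSS (chr14:99331656-99331855) held 3 motifs each in this stretch, the region 37.5 kb upstream of Klf5 (chr14:99261195-99261394) held 1, and the Klf5 promoter (chr14:99298409-99298608) and Klf2 promoter (chr8:72318765-72318964) held 0. The whole merged region at the Klf2 TSS held 2 motifs, and that at the Klf5 TSS held 0. The last sequence lies in an intron of Slc2a3, 55.6 kb downstream of the Nanog TSS and just outside the window (chr6:122763044-122763243), with 2 motifs. Not shown are the region at the Slc2a3 TSSs within the Nanog window, with 1 motif in such a stretch, and the Klf5 region 2.45 kb downstream, with 0. Both were called in 5 libraries. Over all merged regions, 39.4% held the motif within 100 bp of the midpoint of the merged region, a centre that differs from that of the sequences. By that measure the Klf4 downstream region held 1 motif, the Klf5 downstream region 0 and the Klf5 upstream region 1.
Klf4 downstream region: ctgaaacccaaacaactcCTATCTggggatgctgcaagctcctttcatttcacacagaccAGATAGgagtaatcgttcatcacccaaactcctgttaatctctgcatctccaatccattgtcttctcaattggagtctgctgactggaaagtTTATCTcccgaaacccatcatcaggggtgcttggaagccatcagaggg
Klf5 downstream region: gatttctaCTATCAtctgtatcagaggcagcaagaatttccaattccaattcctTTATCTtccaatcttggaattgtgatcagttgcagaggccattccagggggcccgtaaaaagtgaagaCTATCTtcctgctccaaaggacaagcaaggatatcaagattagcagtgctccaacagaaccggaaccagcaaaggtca
Klf5 upstream region: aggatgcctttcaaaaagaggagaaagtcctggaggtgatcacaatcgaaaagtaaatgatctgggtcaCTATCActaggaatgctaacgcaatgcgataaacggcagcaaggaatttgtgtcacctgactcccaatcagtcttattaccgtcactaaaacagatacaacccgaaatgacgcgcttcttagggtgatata
Klf5 promoter region: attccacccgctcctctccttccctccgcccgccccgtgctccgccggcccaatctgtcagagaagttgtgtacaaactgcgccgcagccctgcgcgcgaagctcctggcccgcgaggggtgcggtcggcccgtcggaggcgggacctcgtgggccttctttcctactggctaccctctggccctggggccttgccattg
Klf2 promoter region: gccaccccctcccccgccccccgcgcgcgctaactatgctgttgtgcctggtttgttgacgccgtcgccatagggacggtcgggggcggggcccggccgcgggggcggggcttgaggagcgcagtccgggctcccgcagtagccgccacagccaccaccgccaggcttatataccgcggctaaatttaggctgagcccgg
Nanog downstream region: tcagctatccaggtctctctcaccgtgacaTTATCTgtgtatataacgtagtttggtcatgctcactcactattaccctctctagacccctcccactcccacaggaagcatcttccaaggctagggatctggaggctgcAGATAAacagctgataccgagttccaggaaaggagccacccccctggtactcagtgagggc

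Regions found in every library of a factor lay in the windows of Nanog and the KLF genes. GATA4 had combined regions in those of Nanog (1), Klf4 (1) and Klf5 (4), which is 3 of 10 genes where 48.2% of all protein-coding genes had one. The region in the Nanog window lay at a TSS of the neighbour Slc2a3, 34655 bp from the nearest Nanog TSS. With windows of 10 kb only Klf5 kept a GATA4 combined region. GATA6 had combined regions at Klf2 (1), Klf4 (1) and Klf5 (3), again 3 of 10 genes, where 38.3% of all genes had one. Pou5f1, Sox2, Esrrb, Zfp42, Tfcp2l1 and Prdm14 had no region in either combined list.

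No locus was free of regions once single libraries were read. A region of at least 1 library lay in the window of 10 of 10 genes, as it did for 95.5% of all protein-coding genes. Nanog, Esrrb, Klf2, Klf4 and Klf5 had a region in every one of the 6 libraries, 5 of 10 genes where 62.6% of all genes did. The same merged region recurred in all 6 libraries at Klf4 (1 region) and Klf5 (3 regions), 2 of 10 genes where 31% of all genes had such a region. Asking for a region in at least 2 of the 3 libraries of a factor gave 7 of 10 genes for GATA4 (all genes, 65.3%) and 8 of 10 for GATA6 (all genes, 60.4%), and Sox2 and Prdm14 were in neither set. Sox2 and Prdm14 were also the genes left without any region when a maximum signal above 5 was asked for, leaving 8 of 10 genes with one where 73.6% of all genes had one.

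Leaving out a library moved these counts, because the combined list then asks for agreement of 2 libraries. Without GATA4 replicate 2 the GATA4 count was 5, with Pou5f1 and Tfcp2l1 added. Without GATA4 replicate 1 it was 4 with Esrrb added, and without GATA4 replicate 3 it was 4 with Klf2 added. The GATA6 count was 5 without any 1 of its libraries. Nanog and Zfp42 were added without replicate 1, Nanog and Pou5f1 without replicate 2, and Esrrb and Tfcp2l1 without replicate 3.

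**Figure D1:**
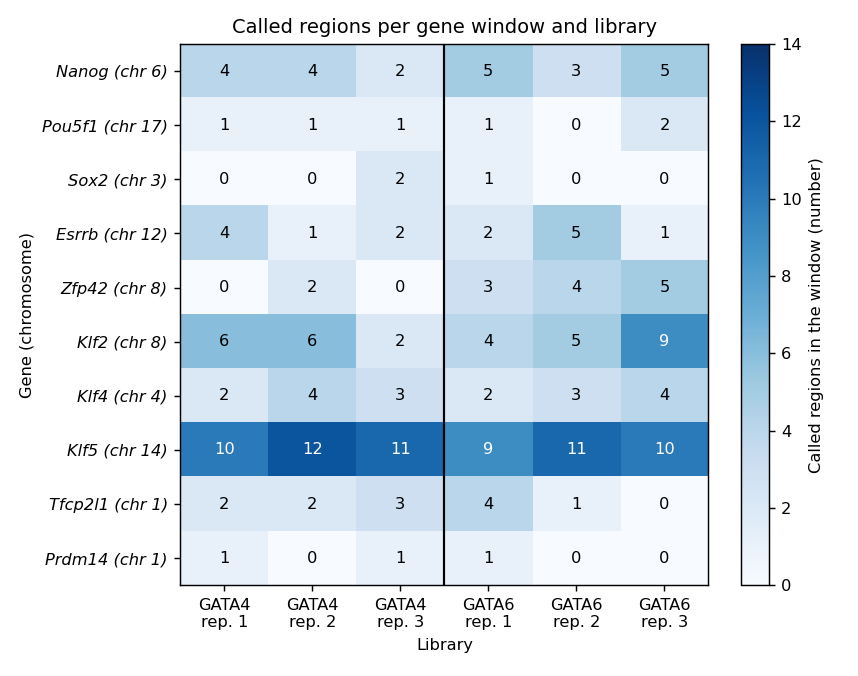
Number of called regions in the window of each gene (rows, with chromosome) in each of the 6 libraries (columns, with GATA4 to the left of the line), with the number printed in each cell and its shade on a scale from 0 to 14. Klf5 held 9 to 12 regions in every library, while Sox2 held 0 to 2 and Prdm14 held 0 to 1.

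Pou5f1 (chromosome 17, 35506018 to 35510772, plus strand) encodes OCT4, the POU factor without which the pluripotent state is lost. Its window held 1, 1 and 1 regions in GATA4 replicates 1, 2 and 3 and 1, 0 and 2 in GATA6 replicates 1, 2 and 3. The groups overlapped, and GATA6 replicate 2 had none. No region lay in the gene body or within 1 kb of a Pou5f1 TSS in any library, and the nearest was 5197 bp from a TSS, where the median over all protein-coding genes was 161 bp. The region called in more than 1 library (35516610 to 35517253, 10.9 kb downstream) lay at the TSSs of the neighbours Tcf19 and Cchcr1. It was called in GATA4 replicates 1 and 3 with maximum signals of 4 and 5 and in GATA6 replicates 1 and 3 with 6 and 7, and it held no GATA motif. The remaining 2 regions, in Tcf19 and 18.8 kb upstream, were each called in a single library. The nearest combined regions lay 129843 bp away for GATA4 and 158447 bp away for GATA6.

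Sox2 (chromosome 3, 34650405 to 34652461, plus strand) encodes the HMG-box partner of OCT4. Its window held 0, 0 and 2 regions in the GATA4 libraries and 1, 0 and 0 in the GATA6 libraries, so 4 of 6 libraries had none. These came to 2 merged regions, fewer than at any of the other 9 genes and at the 7.83rd percentile of all protein-coding genes. The first lay 6.44 kb upstream at a TSS of the non-coding gene Gm42692 (34643471 to 34644461), with a maximum signal of 5 in GATA4 replicate 3 and 5 in GATA6 replicate 1. The other lay 19.9 kb upstream in Sox2ot, the long non-coding RNA that spans Sox2, with a maximum signal of 4 in GATA4 replicate 3. The nearest combined regions were the farthest of the 10 genes, at 840397 bp for GATA4 and 1825215 bp for GATA6.

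Nanog (chromosome 6, 122707489 to 122714633, plus strand) encodes the homeobox factor that opposes GATA6 in the inner cell mass. It held 4, 4 and 2 regions in the GATA4 libraries and 5, 3 and 5 in the GATA6 libraries, in 14 merged regions, 10 of them called in 1 library. The regions that recurred most lay beyond its 3′ end at the TSSs of Slc2a3, a glucose transporter gene. A region at 122742123 to 122743055 had maximum signals of 8, 8 and 8 in the GATA4 libraries and 5 and 4 in GATA6 replicates 1 and 3, and it gave the single GATA4 combined region of the window. A region beside it, 36.1 kb from the Nanog TSS (122743388 to 122743963), had maximum signals of 9 and 8 in GATA4 replicates 1 and 2 and 13 and 9 in GATA6 replicates 2 and 3. Their percentiles of total signal ran from 60.7 to 97, and in GATA6 replicates 1 and 3 other regions of the window stood above the first of them. One of these lay 38 kb upstream between genes and was called in GATA4 replicate 2 and GATA6 replicate 1, with maximum signals of 7 and 9. A region at the Nanog TSS was called in GATA6 replicates 1 and 3 and in no GATA4 library. Its maximum signal was 5 in each, at percentiles of 6.81 and 46. In GATA6 replicate 3 it covered a TSS (122707457 to 122707820), whereas in GATA6 replicate 1 it began downstream of the TSSs, at 122707719.

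Beyond the Nanog window the regions continued through Slc2a3. The region 55.6 kb downstream (122762855 to 122763549), whose sequence is given above, was in both combined lists, with maximum signals of 12, 11 and 13 in the GATA4 libraries and 10, 12 and 6 in the GATA6 libraries. A region 53.6 kb downstream and regions 57.7 and 65.2 kb downstream were in the GATA4 combined list alone. The last of these were called in all 3 GATA4 libraries and in no GATA6 library, with maximum signals of 5, 6 and 5 at 57.7 kb and 3, 4 and 7 at 65.2 kb. Their percentiles of total signal in GATA4 replicates 1, 2 and 3 were 5.82, 41.7 and 12.7 at 57.7 kb. At 65.2 kb they were 80.5, 86.7 and 91.8. With windows of 100 kb Nanog was therefore among the genes with combined regions of both factors.

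Esrrb (chromosome 12, 86361117 to 86521628, plus strand) encodes an orphan nuclear receptor that sustains self-renewal and is a target of NANOG. Its window is the widest, at 243.3 kb, since the gene is long, and held 4, 1 and 2 regions in the GATA4 libraries and 2, 5 and 1 in the GATA6 libraries. None of the 12 merged regions was called in more than 2 libraries. Those in 2 libraries lay inside the gene, 10.4 kb upstream of its first listed TSS (GATA4 replicate 1 and GATA6 replicate 1), 14 kb downstream (GATA6 replicates 1 and 2) and 59 kb downstream (GATA4 replicates 2 and 3), with maximum signals of 2 to 6. The last of them held 8 GATA motifs in 1146 bp.

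Zfp42 (chromosome 8, 43295063 to 43306980, minus strand) encodes REX1, a zinc finger protein used as a marker of naive cells. It held 0, 2 and 0 regions in the GATA4 libraries and 3, 4 and 5 in the GATA6 libraries. Every GATA6 library was above every GATA4 library. Of the 13 merged regions 12 were called in a single library, and the region in 2 libraries, 31.8 kb upstream, joined regions of GATA6 replicates 2 and 3 that had maximum signals of 3 and 3. The TSS was covered in GATA6 replicate 3 alone, with a maximum signal of 4.

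Tfcp2l1 (chromosome 1, 118627945 to 118685168, plus strand) encodes a CP2-family factor that acts downstream of LIF signalling. It held 2, 2 and 3 regions in the GATA4 libraries and 4, 1 and 0 in the GATA6 libraries. A region of 279 bp over its TSS (118627793 to 118628071) had maximum signals of 8 and 7 in GATA4 replicates 1 and 3 and 9 in GATA6 replicate 1, held no GATA motif, and was called in no other library. A region 20.4 kb downstream inside the gene was called in GATA6 replicates 1 and 2 with a maximum signal of 6 in each. The nearest GATA4 combined region lay outside the window, 62.1 kb downstream (118689705 to 118690299), with maximum signals of 10, 13 and 10 in the GATA4 libraries and 5 and 5 in GATA6 replicates 1 and 3.

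Prdm14 (chromosome 1, 13113457 to 13127163, minus strand) encodes a PR-domain protein that restrains FGF signalling and DNA methylation in naive cells. It held 1, 0 and 1 regions in the GATA4 libraries and 1, 0 and 0 in the GATA6 libraries. Its 3 merged regions were each called in a single library, with maximum signals of 3, 5 and 4, and lay 1.05 kb upstream, 35.9 kb downstream and 9.49 kb upstream. It was the only gene of the 10 with no region in more than 1 library.

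The KLF genes encode Krüppel-like zinc finger factors that stabilise the naive state in part redundantly. Every combined region in the 10 windows, other than that at the Slc2a3 TSSs downstream of Nanog, lay in the windows of Klf2, Klf4 or Klf5.

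Klf2 (chromosome 8, 72319033 to 72321656, plus strand) held 6, 6 and 2 regions in the GATA4 libraries and 4, 5 and 9 in the GATA6 libraries. A region over its TSS (72318036 to 72319470) had maximum signals of 6 and 7 in GATA4 replicates 1 and 2 and 11, 4 and 4 in the GATA6 libraries, at percentiles from 76.5 to 97.5. Since GATA4 replicate 3 had no region there, it entered the GATA6 combined list only, and with a maximum signal above 5 asked for in each library it would enter neither. The other 5 regions in more than 1 library lay 11.8 to 47.8 kb away, 2 of them in the neighbouring gene Eps15l1, with maximum signals of 3 to 6. The Klf2 region 47.8 kb upstream, called in 3 libraries, began 47244 bp from the TSS and was among those nearest to the edge of a window.

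Klf4 (chromosome 4, 55527143 to 55532466, minus strand) is a target of LIF signalling and a reprogramming factor. It held 2, 4 and 3 regions in the GATA4 libraries and 2, 3 and 4 in the GATA6 libraries, in 7 merged regions. The region 16.9 kb downstream, between genes (55514560 to 55516605), was called in all 6 libraries with maximum signals of 11, 15 and 11 for GATA4 and 8, 7 and 10 for GATA6. Its percentiles of total signal ran from 94.1 to 99.5 and it was in both combined lists. A region 0.676 kb upstream of the TSS was called in GATA4 replicate 2 and GATA6 replicate 1 with a maximum signal of 4 in each, and a region 2.19 kb upstream in GATA6 replicates 2 and 3 with 3 and 4. A region 35.7 kb downstream was called in GATA4 replicate 3 and GATA6 replicate 3 with 4 and 6.

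Klf5 (chromosome 14, 99298691 to 99315036, plus strand), which acts in the naive epiblast and also in trophectoderm, held the most regions of the 10 genes, 10, 12 and 11 in the GATA4 libraries and 9, 11 and 10 in the GATA6 libraries. Of its 29 merged regions 10 were called in more than 1 library and 3 in all 6. The strongest lay 33.3 kb downstream between genes (99330893 to 99333064), with maximum signals of 18, 17 and 15 for GATA4 and 10, 18 and 8 for GATA6. Its total signal stood at the 99.9th percentile in 5 libraries and at the 99.4th in GATA6 replicate 3. The region 37.5 kb upstream (99260471 to 99261880) had maximum signals of 11, 14 and 10 for GATA4 and 8, 8 and 8 for GATA6. The TSS region (99298143 to 99298888) had 9, 9 and 11 for GATA4 and 9, 8 and 9 for GATA6. All 3 were in both combined lists. A further GATA4 combined region covered an intron and an exon 2.45 kb downstream of the TSS (99300217 to 99302063), with maximum signals of 6, 5 and 5 for GATA4 and 3 and 5 in GATA6 replicates 2 and 3. Regions 34.3 and 23.4 kb upstream were each called in 4 libraries, 2 for each factor, with maximum signals of 4 to 10. The other 4 were called in 2 libraries with maximum signals of 3 to 6, at 45.2 kb upstream (GATA4 replicates 2 and 3), 3.08 kb upstream (GATA6 replicates 2 and 3), 8.9 kb downstream (GATA4 replicate 3 and GATA6 replicate 1) and 26.1 kb downstream (GATA6 replicates 1 and 3).

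**Figure D2:**
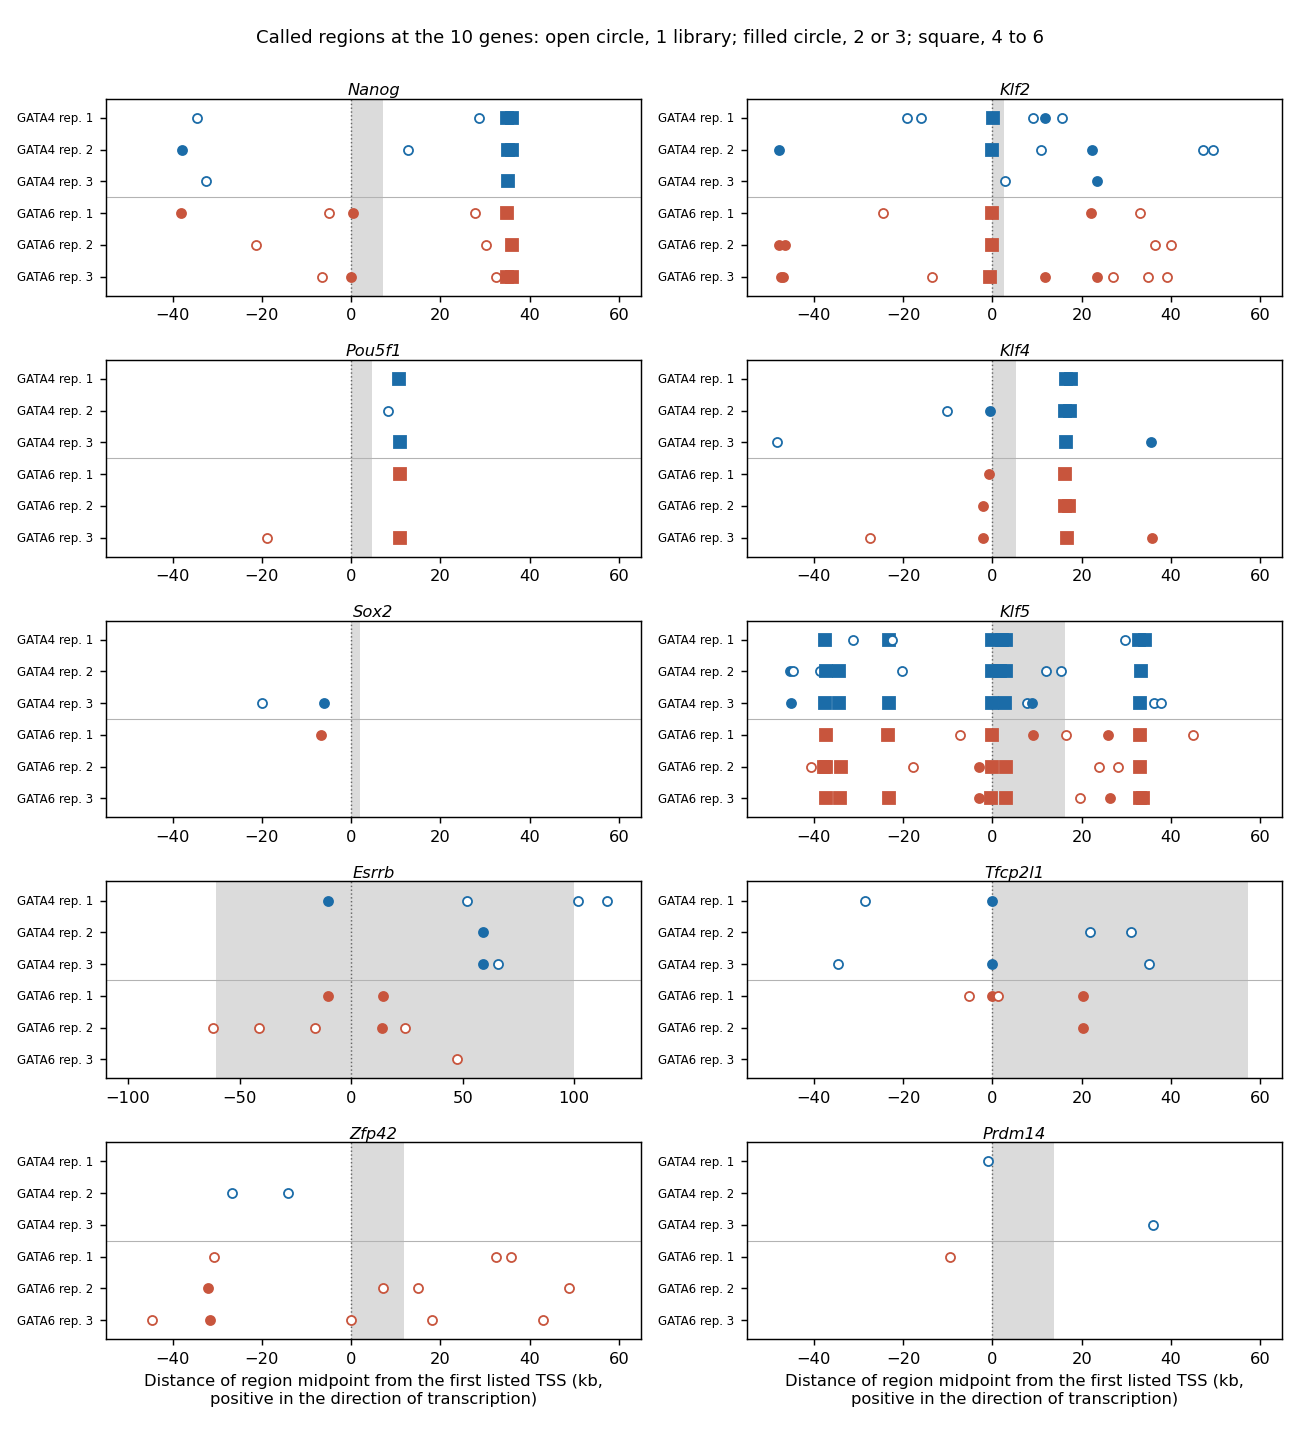
Midpoints of all called regions in each window against distance from the first listed TSS in kb, positive in the direction of transcription, with 1 line per library (GATA4 blue, GATA6 red) and the gene body in grey. The axis of Esrrb is wider than the others. Squares, for regions called in 4 to 6 libraries, stand at Klf5, Klf4, the Klf2 TSS, downstream of Nanog and downstream of Pou5f1, and the other genes show circles only.

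Within 1 kb of a TSS, 8 of 10 genes had a region of at least 1 library, all but Pou5f1 and Sox2, where 59.7% of all genes had one. At Esrrb, Zfp42 and Prdm14 these TSS regions were called in 1 library, at Nanog and Klf4 in 2, at Tfcp2l1 in up to 3, at Klf2 in 5 and at Klf5 in 6. GATA4 had a combined region there at Klf5 alone (1 of 10, all genes 19.8%) and GATA6 at Klf2 and Klf5 (2 of 10, all genes 13.8%).

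The 10 windows held 189 called regions over the 6 libraries, in 114 merged regions. The number per gene ran from 2 at Sox2 to 29 at Klf5, with a median of 10.5 where the median over all protein-coding genes was 10. Of the 114, 82 (71.9%) were called in a single library, a share that was 83.2% over all merged regions, and 4 (3.51%) were called in all 6, a share that was 1.88% over all. By position, 10 lay at a TSS of one of the 10 genes, 5 at a TSS of a neighbour, 20 elsewhere in one of the 10 genes, 21 in a neighbour and 58 between genes.

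The GATA motif lay in 75 of the 114 regions (65.8%), where it lay in 69.5% of all merged regions. Among the 32 regions called in at least 2 libraries it lay in 25 (78.1%), where the share over all such regions was 74.8%. Of the 4 regions called in all 6 libraries, 3 held the motif and the Klf5 TSS region did not. The promoters of 8 of the genes, taken from RefSeq on GRCm38.p6 as 300 bp around a TSS, gave 11 sequences of which 5 held the motif, where 29.8% of 32851 promoters did. Nanog, Esrrb and Pou5f1 each gave more than 1 sequence, and both of Pou5f1 held the motif. Of the sequences with a motif, those of Pou5f1 and Esrrb had a region in 0 libraries. That of Nanog had one in 1 library and that of Klf2 in 5.

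Signal rank was highest for regions called in at least 4 libraries. Regions called in a single library had a maximum signal that ran from 2 to 10 with a median of 4, and a total signal with a median at the 43.9th percentile of its library. Regions called in 2 or 3 libraries differed little from them, with a median maximum signal of 4 and a median at the 50.2nd percentile. Regions called in all 6 libraries had maximum signals from 4 to 18 with a median of 9 and a median at the 96.5th percentile. These values come from 30 called regions in 4 merged regions, 1 at Klf4 and 3 at Klf5, with percentiles from 26.6 to 99.9. Among the regions called in 4 or 5 libraries the median was at the 88.8th percentile.

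**Figure D3:**
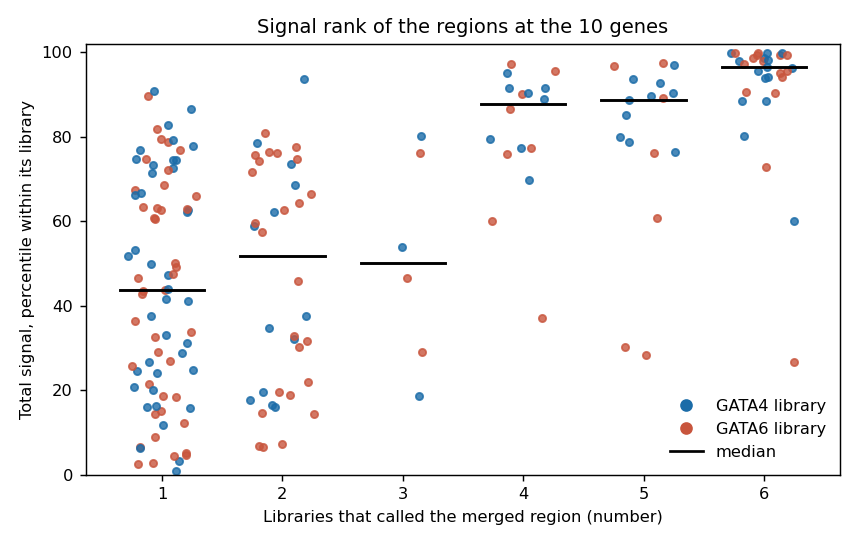
Total signal of each called region in the 10 windows as a percentile within its own library, against the number of libraries that called the merged region, with GATA4 libraries blue, GATA6 libraries red and a black bar at the median. Points are spread sideways for display; regions of 1 library range from the 1st to the 90.9th percentile, and most regions of 6 libraries stand near the top.

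Called regions were unevenly spread over the chromosomes, which bears on Klf2, Zfp42 and Klf5. The median over the 6 libraries was 47.8 regions per Mb on chromosome 8, which holds Klf2 and Zfp42, and 39.4 on chromosome 14, which holds Klf5, whereas the chromosomes of the other 7 genes had 11.7 to 17.6. The median protein-coding gene had 28 merged regions in its window on chromosome 8 and 25 on chromosome 14. Klf2 with 22 and Zfp42 with 13 were below the median of their chromosome, and Klf5 with 29 was above it.

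Region numbers were also divided by the number that the mean density of the whole chromosome gives for the window. Windows of protein-coding genes lie above that mean, with a median ratio of 1.35 over all 21938 genes and an upper quartile of 2.18. Nanog had the highest ratio of the 10 genes, 2.97 (3.83 regions per library where the density gives 1.29), followed by Klf5 at 2.62 and Klf4 at 2.2. They stood at the 87.8th, 83.4th and 75.4th percentiles of all genes. Among the genes of their own chromosome, Nanog stood at the 90.8th, Klf5 at the 95.6th and Klf4 at the 71.7th percentile. The Nanog count includes regions of its neighbour Slc2a3. Of the 14 merged regions there, 2 lay at the Slc2a3 TSSs, 4 inside Slc2a3, 7 between genes and 1 at the Nanog TSS. The 2 at the Slc2a3 TSSs were called in 5 and 4 libraries. Klf2 (1.13), Tfcp2l1 (1.07) and Esrrb (0.862) were below the median gene, at the 41.6th, 39.3rd and 31st percentiles, and their ratios fell on both sides of 1 across the libraries. The lowest were Pou5f1 (0.641), Zfp42 (0.492), Sox2 (0.378) and Prdm14 (0.287), at the 21.8th, 15.7th, 11.9th and 9.65th percentiles. Within their own chromosome these stood at the 19.6th, 3.99th, 5.88th and 5.5th percentiles, so that Zfp42 was then the lowest. Klf2, Tfcp2l1 and Esrrb stood there at the 32.9th, 44.4th and 21.5th.

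**Figure D4:**
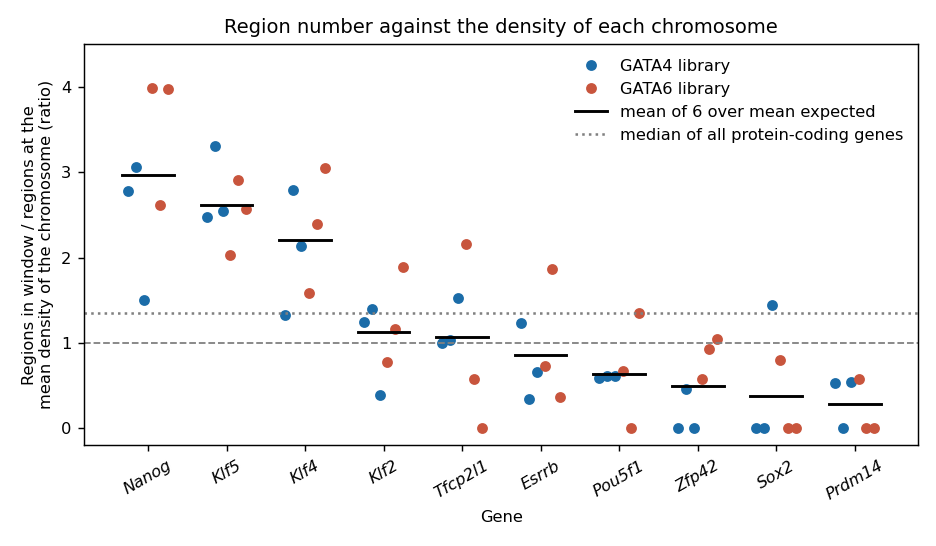
Regions in each window divided by the number expected from the window length and the mean density of its chromosome in the same library, a ratio without unit, for each of the 6 libraries (GATA4 blue, GATA6 red) with the ratio of the means as a black bar. The dashed line marks a ratio of 1 and the dotted line the median of all protein-coding genes, 1.35. Nanog and Klf5 lie above both lines in every library, and Prdm14 lies below both in every library.

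The comparison of GATA4 with GATA6 asks whether the factors differ at these loci. The GATA4 libraries had 30, 32 and 27 regions in the 10 windows, 29.7 ± 2.52 (SD, n = 3), and the GATA6 libraries had 32, 32 and 36, 33.3 ± 2.31 (SD, n = 3). The mean difference per window, GATA4 minus GATA6, was -0.367 regions. Across all 21938 protein-coding genes the two-sided exact permutation test of region number, adjusted by Benjamini-Hochberg, called 0 genes, and 0 genes had an unadjusted p under 0.05, since 3 against 3 libraries cannot go below 0.1. At that smallest p stood 1503 genes (6.85%), and among the 10 genes Zfp42.

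Zfp42 had 0.667 ± 1.15 regions in the GATA4 libraries and 4 ± 1 in the GATA6 libraries (SD, n = 3; exact permutation p = 0.1, adjusted p = 1). With only regions of a maximum signal above 5, the difference of -3.33 turned to 0.333. That value rests on the region 26.7 kb upstream, called in GATA4 replicate 2 alone with a maximum signal of 6. Every other region of the Zfp42 window had a maximum signal below 5, and signal was not scaled between libraries. Every GATA6 library was above every GATA4 library at 1 of the 10 genes, where this held for 1.49% of all genes. The reverse order held at 0 of the 10 genes, where it held for 5.36% of all genes. At Klf5 the means were 11 ± 1 and 10 ± 1 (SD, n = 3; exact permutation p = 0.5), and at Klf4 they were 3 ± 1 and 3 ± 1 (SD, n = 3; exact permutation p = 1). The remaining genes had exact permutation p from 0.5 to 1, with differences from -1.33 regions at Klf2 to 0.667 at Tfcp2l1. The sign at Nanog, Sox2, Esrrb, Klf2, Tfcp2l1 and Prdm14 also turned under at least 1 other setting.

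Enhancers that are known in ES cells were examined for Nanog, Pou5f1, Sox2 and Klf4. They were placed by approximate distance from the TSS, from general knowledge and not from these files, so their edges are not exact. Of 9 intervals, 3 held a region in at least 1 library and 1 held a combined region. No share was computed for other intervals of the same length. The lengths differ, from short ones at Pou5f1 (such as -1.5 to -0.7 kb) to the longest at Klf4 (52 to 70 kb). The chromosomes of these genes had medians of 12.8 to 15.2 regions per Mb. A short interval would mostly hold none at that density, so a count of 0 there says little about the element.

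The Nanog +60 kb interval (56 to 64 kb downstream) held 3, 2 and 2 regions in the GATA4 libraries and 0, 0 and 1 in the GATA6 libraries, with 1 GATA4 combined region. That combined region, at 57.7 kb, was of low rank, at percentiles of 5.82, 41.7 and 12.7 in GATA4 replicates 1, 2 and 3. Widening the interval by 1 kb at each end took in the region at 55.6 kb and the edge of the region at 65.2 kb. It then held 5, 3 and 4 regions for GATA4 and 1, 1 and 2 for GATA6, with 3 combined regions of GATA4 and 1 of GATA6. The regions named here lie inside Slc2a3, and the files do not show which of the genes a region belongs to. The Nanog -5 kb interval held 1 region in GATA6 replicate 1, and the -45 kb interval held 0 in all 6 libraries.

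The proximal and distal enhancers of Pou5f1, upstream of its TSS, held 0 regions in all 6 libraries, also after widening. The Sox2 intervals, SRR1 upstream, SRR2 downstream and the distal control region beyond 100 kb downstream, held 0 as well, and SRR1 took in 1 region of GATA4 replicate 3 when widened. The distal enhancer cluster of Klf4, 52 to 70 kb downstream, held 2 regions in GATA4 replicate 1 and 0 in the other 5 libraries, so the region in 6 libraries at 16.9 kb lay outside it.

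The inducible cassette carries coding sequence of Pou5f1, Klf4 and Sox2, so fragments from the cassette would map to the exons of these genes. No region in any of the 6 libraries lay over their exons, 2248, 3049 and 2057 bp in length, or elsewhere in their gene bodies.

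The same counts were taken for lists of other genes, chosen with earlier results known. Of 20 other pluripotency genes, 9 had a GATA4 combined region (all genes, 48.2%) and 6 a GATA6 combined region (all genes, 38.3%). Their median was 7 merged regions per window (all genes, 10). Of 10 PrE genes, 10 had a GATA4 and 9 a GATA6 combined region, with a median of 18. A region called in all 6 libraries was held by 9 of them, by 2 of the 10 pluripotency factors and by 31% of all genes. Part of the PrE list lies on the dense chromosome 14, as Klf5 does.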

How the data were processed

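CUT&RUN for GATA4 and GATA6 was analysed in 6 libraries of XEN cells, 3 per factor. Groups and replicate numbers were taken from the sample titles. The labels give the line 3F2, whereas the study's methods also name 3F6 and another number of replicates, and the labels were followed. Nothing states that replicates are separate cultures, so p-values measure the spread between these libraries, which may be technical.

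Reads were mapped by the authors to mm10 with Bowtie2 2.3.4.1 and filtered against duplicates, poor mapping quality, the mitochondrial genome and blacklisted sites, and regions were called in each library with SEACR 1.3 (versions per the submitters' processing notes) in stringent mode, without normalisation and with a numeric threshold. The description of the call names no IgG control, and such a threshold largely sets how many regions a library yields. The deposited lists of single libraries give for each region a total signal and a maximum signal, the fragment pileup counted by the authors without scaling for depth. The deposited combined lists give positions only. They held the same regions as the merged lists called in 3 of 3 libraries (8282 of 8282 for GATA4 and 5170 of 5170 for GATA6).

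TSSs, exons and gene bodies came from GENCODE M21, all transcripts of protein-coding and long non-coding genes, and sequence from GRCm38. Overlap meant at least 1 bp. Distances in kb were taken from the first listed TSS to the region midpoint, and nearest distances in bp from any TSS to the region edge. Where a library had several regions within a merged region, the highest maximum signal and percentile is given. Region numbers were compared on all 21938 protein-coding genes by a two-sided exact permutation test over the 20 divisions of 6 libraries into 3 and 3, with Benjamini-Hochberg adjustment. The 10 genes, the other lists, the enhancer intervals and the tests were chosen with earlier results of these data known. All 10 genes are described. Genes outside the list are named where a region of a window, or one just beyond it, lies at or in them, or where they check the cell type. Regions named are those in a combined list, those called in at least 2 libraries, the nearest to each TSS and, beyond the windows by up to 20 kb, those in a combined list.

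Alternatives were windows of 10 and 100 kb, windows without the gene body, region midpoints, the first listed transcript, regions with a maximum signal above 5, the 20000 regions of highest total signal per library, 2 of 3 libraries, a replicate block and leaving out each library. Same-numbered libraries did not deviate together (correlations of 0.00102, 0.00148 and 0.00118 over 201994 merged regions). Since 83.2% of these regions were called in a single library, the correlations cannot tell whether such libraries share a culture or batch. The code was tested on simulated data. Python 3.11.15, numpy 2.4.6, scipy 1.17.1 and matplotlib 3.10.9 were used. Depth after filtering is unknown, so no counting interval is given.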

Additional observations from a re-analysis of the deposited data

How the results depend on the processing

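Of 238 values under the alternatives, 13 differences at single genes took the opposite sign and 21 counts or mean differences moved by over 1.5 times or by more than the spread between replicates. The other 204 did neither, although some differences at single genes went to or from 0. The number of loci with a GATA4 combined region was 1 with windows of 10 kb, 5 with windows of 100 kb, 7 for regions in at least 2 of 3 libraries, and 3 to 5 when a library was left out. That for GATA6 was 2 with 10 kb, 4 with 100 kb, 2 with a maximum signal above 5 (Klf2 was lost), 8 for at least 2 of 3 libraries and 3 to 5 when a library was left out. With a maximum signal above 5, 2 loci (Sox2 and Prdm14) were free of regions. In the order 10 kb, 100 kb, maximum signal above 5 and top 20000 regions, merged regions numbered 42, 227, 25 and 57, of which 27, 167, 13 and 39 were called in 1 library. The motif lay within 100 bp of the midpoint in 41 regions. The counts of merged regions follow from the length of the window or list.

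The mean difference per window, GATA4 minus GATA6, was 0.1 with 100 kb, 0.0333 with a maximum signal above 5 and 0 with the top 20000 regions. Single genes changed sign as follows, and the cause was not tested. With 100 kb Nanog was at 3.67, and with 10 kb Klf2 at 0.333. With a maximum signal above 5, Nanog, Esrrb and Zfp42 were at 0.333 and Tfcp2l1 at -0.333. With the top 20000 regions Esrrb was at 0.667 and Prdm14 at -0.333. Leaving out a library gave -0.333 (without GATA4 replicate 3) to 0.667 for Sox2, -1.17 to 0.833 for Esrrb (0.333 without GATA4 replicate 2 and 0.833 without GATA6 replicate 2), -2.33 to 0.167 for Klf2 (the highest without GATA6 replicate 3) and -0.167 to 1.83 for Tfcp2l1 (the lowest without GATA6 replicate 3).

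With the replicate number as a replicate block, 0 protein-coding genes were called, as without it, and Zfp42 had an exact permutation p = 0.25, the smallest that 3 pairs can give. The numbers were not shown to pair the libraries. With depth unknown, a locus without a region is one where none was called at this threshold.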

Other observations

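A region in Pibf1, a centrosomal protein gene upstream of Klf5, lay just outside the Klf5 window, beginning 52330 bp from the TSS (chromosome 14, 99244470 to 99246361). It was in both combined lists, with maximum signals of 5, 9 and 6 in GATA4 replicates 1, 2 and 3 and 4, 5 and 4 in the GATA6 libraries. No stretch of it was covered in more than 4 of the 6 libraries, so it joins regions that overlap in part.

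The share of protein-coding genes with a GATA4 combined region in the window also varied by chromosome, from 39.7% on chromosome 6, which holds Nanog, to 74.6% on chromosome 8, which holds Klf2 and Zfp42, among the chromosomes of the 10 genes. For GATA6 it ran from 27.5% on chromosome 6 to 70.3% on chromosome 8. Klf2 had no GATA4 combined region and Zfp42 had no combined region of either factor, on a chromosome where most genes had one.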
